A study of Mus musculus with 2 samples.

Results

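The proteasome genes of skeletal muscle were examined in RXRγ mice, which overexpress the retinoid X receptor γ in this tissue. Members were the probe sets with 1 gene symbol in the platform annotation that begins with Psma, Psmb, Psmc, Psmd, Psme, Psmf or Psmg and a digit. This gave 49 genes on 103 probe sets, of 18194 genes on 34958 probe sets named for 1 gene. Each probe set on the array is a family of short oligonucleotides against 1 transcript or several similar ones. RNA came from female RXRγ mice of line 4-3 and from non-transgenic (wildtype) control mice, all 4 months of age, strain C57BL6. In RXRγ mice the human α-actin promoter drives RXRγ, and the animals on the array represent 1 transgenic line. The RNA of several animals was combined per genotype before hybridization to 1 Affymetrix MG430 array each. The series design and the Methods give 5 animals per pool, whereas the extract protocol of the samples gives 3. A figure legend of the paper gives another number for samples that it says were also used on the arrays. Feeding is given for RXRγ mice, which had free access to CRF-1 chow, and the muscle taken is not named in the sources used here. Neither genotype has a replicate array. The values below therefore carry no error, genotypes could not be tested against each other, and precision is limited by having only 2 arrays.

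The proteasome degrades proteins that carry ubiquitin chains. Its 20S core is a barrel of α and β subunit rings in which the catalytic β subunits cut proteins, and the 19S regulatory particle, with an ATPase ring, receives, unfolds and feeds substrates into the core. Interferon-γ induces alternative catalytic subunits, which form the immunoproteasome, and the PA28 activator, and both favour peptides for MHC class I molecules. In muscle the ubiquitin-proteasome system degrades contractile proteins during atrophy, when proteasome genes and the muscle ubiquitin ligase genes are commonly induced together.

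The signals are the authors' linear array values, in array units, with a median of 22.7 on the control array and 24.3 on the RXRγ array. A gene was counted as measured when a probe set had a signal above 250 on the brighter array. This is the signal threshold of the Methods, which also required a present call, not used here. The value of a gene is the mean log2 ratio of RXRγ over control mice over its probe sets above 250. Calls of higher or lower were made from 0.4 upward, in either direction, on the log2 scale. A signal under 150 was taken as too low for a fold. The transgene product was as labelled, since Rxrg gave 9172 on the RXRγ array and 334.5 on the control array. All 11 skeletal muscle fibre markers were measured, with no brightest probe set below 5703.3 on either array. All 11 had log2 ratios below 0 (median -0.24), and Ckm, Myh2 and Myh4 were lower by the threshold given above. The 2 probe sets of Ckm lay 1.28 apart and the 2 of Myh4 lay 0.71 apart. On the brightest one, Ckm had 10908.9 in RXRγ mice against 11775.9 in control mice, and Myh4 had 11145.4 against 11631.1. These 2 calls thus rest on the dimmer probe set. Of 6 fibroblast markers Lum was higher (log2 ratio 1.34) and the other 5 were within 0.4. The part of these shifts in the values below was not tested. Of 11 leukocyte markers with a probe set, 9 were under 150 on both arrays, and the summed signal of the list was 1364.7 on the control array and 1619.2 on the RXRγ array. None of 6 endothelium markers was measured, and all 6 read lower on the RXRγ array on their brightest probe set. Their summed signal was 919.7 on the control array and 734.1 on the RXRγ array.

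Most proteasome genes lay close to their control level. Of 49 member genes, 36 were measured. Psme1, which encodes the α subunit of PA28, was higher in RXRγ mice, and Psma7, Psmd4 and Psme3 were lower. Among all 3780 measured genes, 16.8% were higher and 20.1% were lower by the same rule, and 36.9% passed 0.4 in either direction, against 11.1% of the proteasome genes. The 32 other proteasome genes stayed within 0.4. The log2 ratios of the proteasome genes had a median of -0.10 and ran from -0.61 to 0.74, and 15 were above 0 and 21 below. The median of all genes was -0.04. The quartiles of the proteasome genes lay at -0.21 and 0.11, and those of all genes at -0.32 and 0.26. Proteasome transcripts gave bright signals, with a median of 1216 on the control array and 1136 on the RXRγ array, while the medians over all measured genes were 456.1 and 452.2. Among the 2067 genes above 500 on the brighter array the share past 0.4 was 37.6% (16.4% higher and 21.2% lower), and 3 of 32 proteasome genes passed it there. These sets were not matched for signal, and the part of brightness in the spread was not tested. In whole muscle, fewer cells of a type and less RNA per cell cannot be told apart.

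Genes of protein synthesis and of ubiquitin conjugation were set beside them. Of 36 measured cytosolic ribosomal protein genes, whose products form another large complex of fixed composition, 3 were lower and none higher. Their median was -0.03, with quartiles at -0.10 and 0.06. Of 19 measured genes of ubiquitin-conjugating E2 enzymes, which pass ubiquitin to substrates, 4 were higher and 4 were lower, with quartiles at -0.30 and 0.28. Their share past 0.4, 42.1%, and their quartiles were near those of all genes. These shares describe the same 2 arrays and were not tested against each other.

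**Figure D1:**
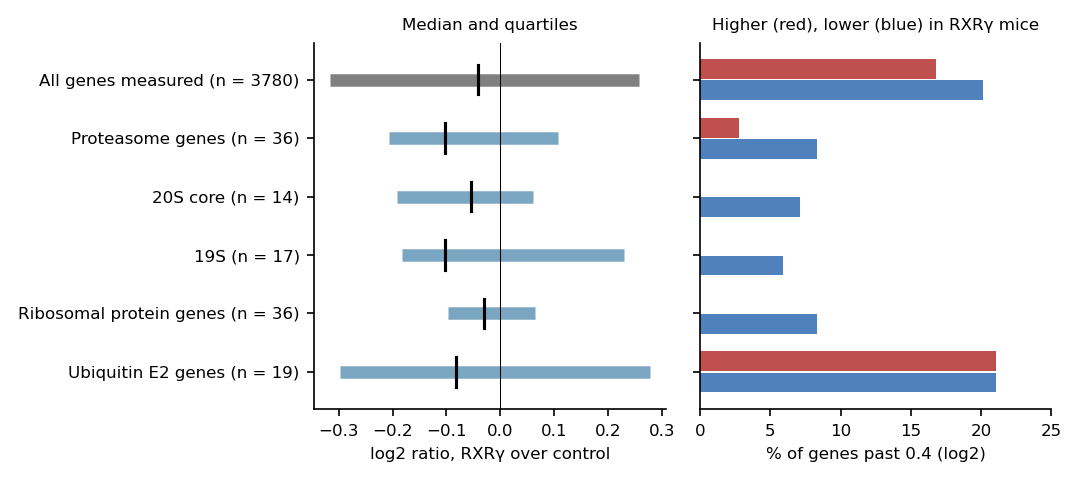
Left, median (black bar) and quartiles (coloured bar) of log2 ratios (RXRγ over control) in 6 groups of measured genes, with n the number of genes. Right, percent of each group that passed a log2 ratio of 0.4 upward (red) or downward (blue); the bars of the proteasome genes are shorter than those of all genes, at 16.8% higher and 20.1% lower.

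The 14 core genes, 7 of the α ring and 7 of the β ring without the interferon-induced forms, were all measured. Their median log2 ratio was -0.05, 10 of them were within 0.2 of 0, and only Psma7 passed the threshold. The α ring forms the gate of the core. Psma7, the α4 subunit, averaged 651.8 on the RXRγ array and 983.1 on the control array, which is 1.52-fold lower. Both of its probe sets were lower, one at 553.2 against 908.2 and the other at 750.4 against 1057.9. Psma3 was the next lowest α ring gene, at 2789.6 against 3435.9 (log2 ratio -0.30). Psma5 was the highest of the ring, at 999.2 against 882.8 (log2 ratio 0.18), and its pair of probe sets differed by 0.03. Psma2, at the median of the ring, had 1299.8 against 1407.8. The remaining members Psma1, Psma4 and Psma6 ran from -0.21 to 0.01 on the log2 scale.

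The β subunits that carry the constitutive active sites had nearly the same signal on both arrays. Psmb5, the chymotrypsin-like subunit, had 1687.2 in RXRγ mice and 1641.5 in control mice. Psmb6, the caspase-like subunit, had 1464.8 against 1503.8. Psmb7, the trypsin-like subunit, had 5932.2 against 5661.2. Their log2 ratios were 0.04, -0.04 and 0.07. The structural β subunits were spread a little more widely. Psmb1 was the lowest, at 1118.8 against 1289.1 (log2 ratio -0.20), and Psmb2 the highest, at 668.3 against 610.5 (log2 ratio 0.13). Psmb3 and Psmb4 lay between them, with log2 ratios of -0.16 and 0.11.

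**Figure D2:**
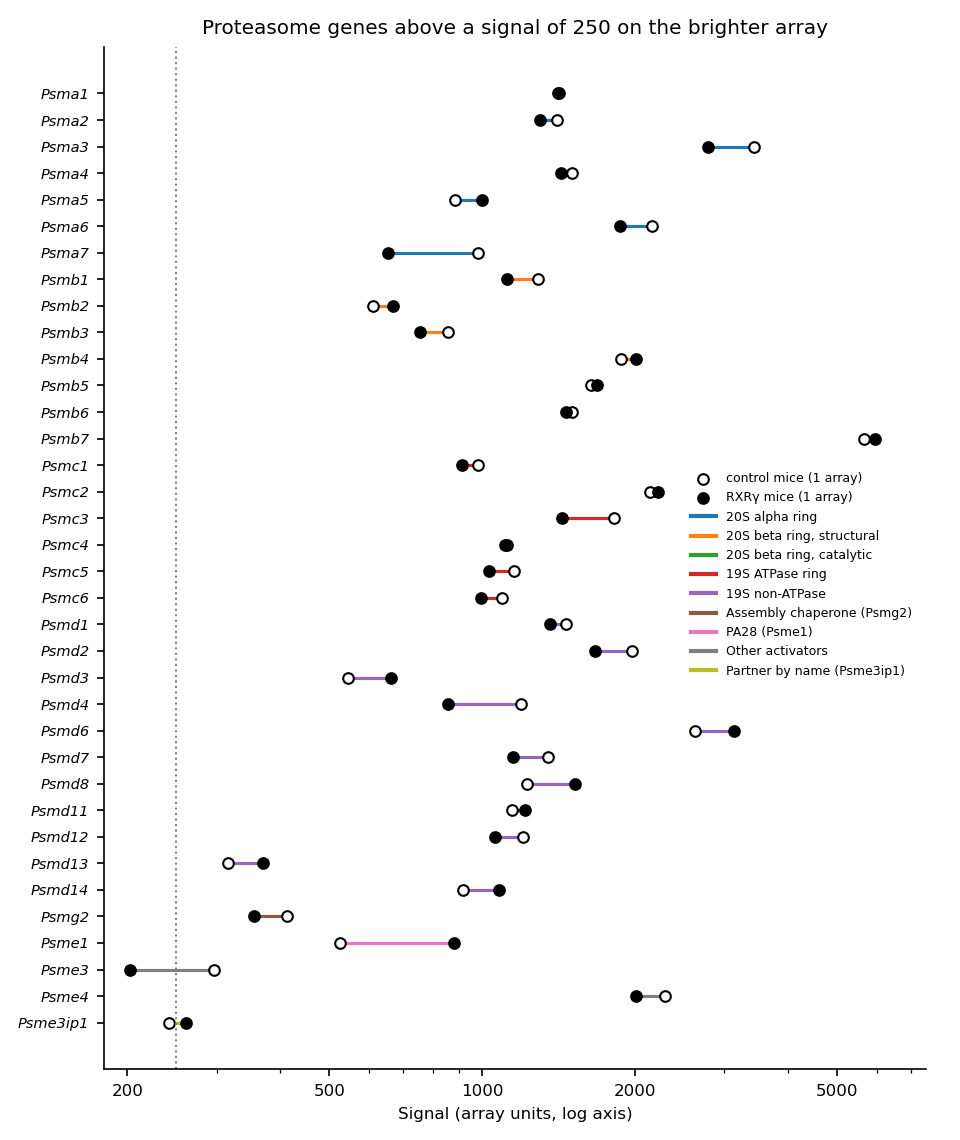
Mean signal of each of the 36 measured proteasome genes on the control array (open circles) and the RXRγ array (filled circles), in array units on a log axis, with 1 array per genotype; connecting lines are coloured by subgroup and the dotted line marks a signal of 250. The longest lines are those of Psma7 (983.1 to 651.8), Psmd4, Psme1 (525.2 to 879.2) and Psme3, and the circles of the catalytic genes Psmb5, Psmb6 and Psmb7 touch.

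All 17 subunit genes of the 19S particle that fall under the naming rule were measured, and their median log2 ratio was -0.10. Of the 6 ATPase genes, 5 were below 0 and none passed the threshold. Psmc3 (Rpt5) was lowest, at 1437.8 in RXRγ mice against 1817.7 in control mice. At -0.34 it lay just outside the threshold, and when the arrays were scaled to the same median it passed it. Psmc2 was the highest, at 2225.8 against 2139.6 (log2 ratio 0.06). Psmc1, Psmc4, Psmc5 and Psmc6 were between -0.16 and -0.10. The pair of probe sets of Psmc4 lay on opposite sides of 0, at -0.30 and 0.09, the widest disagreement among probe sets above 250 of a proteasome gene.

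The 11 non-ATPase genes went both ways, with 6 above and 5 below 0 and 3 within 0.2. Psmd4, which encodes the ubiquitin receptor Rpn10, was 1.40-fold lower, averaging 855.1 on the RXRγ array and 1194 on the control array. Its probe sets above 250 had 879.7 against 1232.7 and 830.4 against 1154.5, and their log2 ratios differed by only 0.01. A dim probe set of the gene had 41.5 against 31.7. Psmd4 is the gene just inside the threshold, and Psmc3 and Psmd8 are those just outside it. Psmd8 (Rpn12), a lid subunit, had 1527.2 against 1228 (log2 ratio 0.31). Other lid genes were also above 0, with Psmd3 (Rpn3) at 662.1 against 544.1, Psmd6 (Rpn7) at 3133.5 against 2622.3, and Psmd14 (Rpn11), the deubiquitinating enzyme of the lid, at 1081.6 against 915.6. Psmd13 (Rpn9) had a log2 ratio of 0.23. Not all lid genes did so, since Psmd7 (Rpn8) had 1153.1 against 1349.7 and Psmd12 (Rpn5) had 1061.5 against 1204.3. Psmd11 (Rpn6), which lies at the median of the group, had a log2 ratio of 0.04 over 4 probe sets from -0.14 to 0.22. The large base subunits Psmd2 (Rpn1) and Psmd1 (Rpn2) had log2 ratios of -0.25 and -0.10.

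Among the 13 proteasome genes with more than 1 probe set above 250, probe sets of the same gene lay a median of 0.10 apart on the log2 ratio scale and at most 0.39. Over the 1213 such genes of the array the median was 0.20. Probe sets of a gene share the RNA pools and the arrays, so their agreement gives no error for the difference between genotypes.

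**Figure D3:**
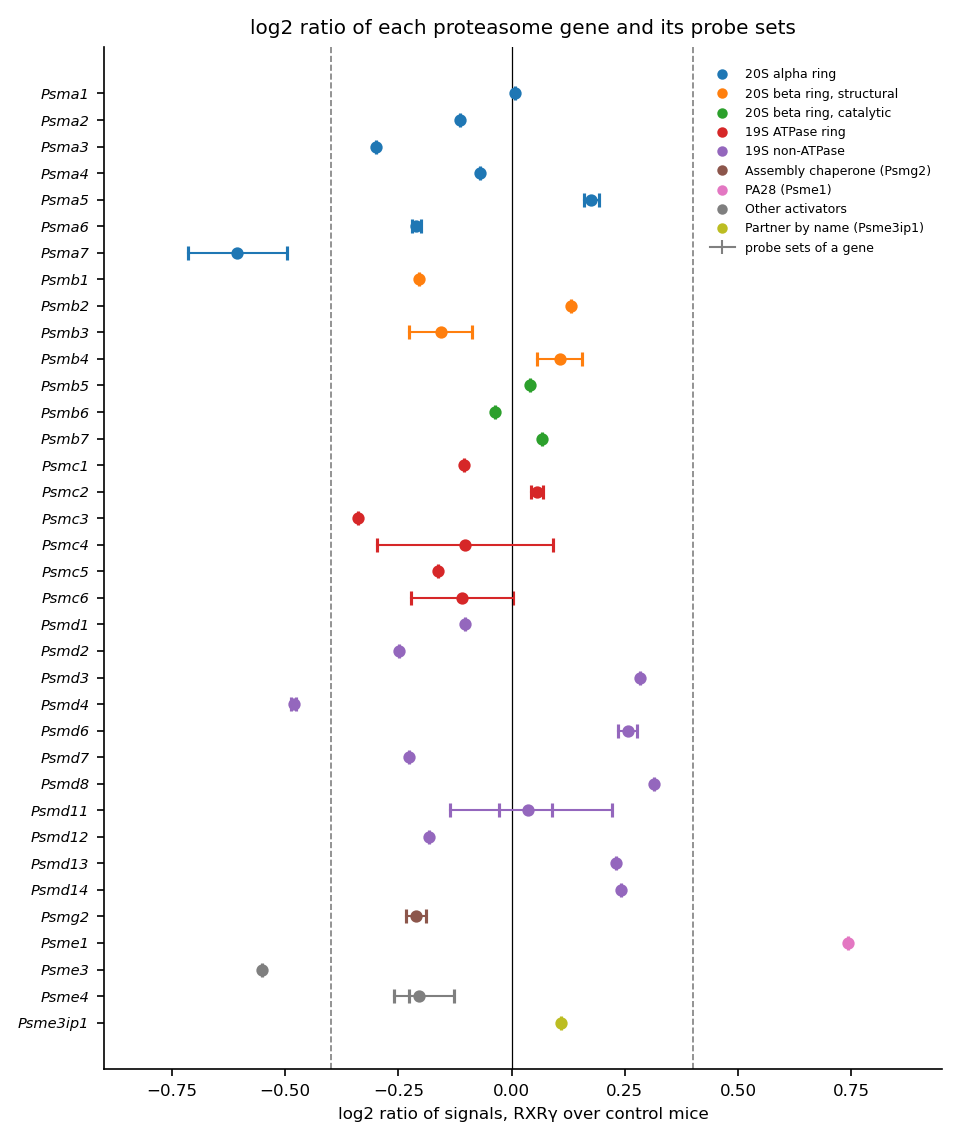
log2 ratios (RXRγ over control) of the 36 measured proteasome genes (points, coloured by subgroup) and for their probe sets above 250 (ticks joined by a line). Dashed lines mark 0.4 in either direction; Psme1 lies to the right of them at 0.74, Psma7, Psme3 and Psmd4 lie to the left at -0.61, -0.55 and -0.48, and the other 32 genes lie between.

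The activators that cap the core in place of 19S diverged. Psme1 (PA28α) gave 879.2 on the RXRγ array and 525.2 on the control array, which is 1.67-fold higher, on its only probe set. Its partner PA28β is encoded by Psme2. The probe set for it is annotated to Psme2 and the related Psme2b together and is therefore no member, and it had 449.4 against 450.3. The level of neither gene alone can be read from this probe set. Psme3, the nuclear activator PA28γ, had 202.4 in RXRγ mice against 296.6 in control mice on its brightest probe set (1.47-fold lower). A dimmer probe set of Psme3, not counted, had 139.9 against 136.7, so the decrease rests on 1 probe set. Psme3 was not among the genes above 250 on both arrays. Psme4, which encodes the activator PA200, had a mean of 2011 against 2291 (log2 ratio -0.20), and all 3 of its bright probe sets lay between -0.26 and -0.13. Psmf1, the inhibitor PI31, stayed under 150 on every probe set.

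None of the 3 immunoproteasome catalytic genes reached a signal of 250, and they are not part of the counts above. Psmb8 (β5i) had 82.7 in RXRγ mice and 78.4 in control mice, and Psmb9 (β1i) had 55.4 and 48.8, too low on both arrays for a fold. Psmb10 (β2i) had 169.1 in RXRγ mice and 95.7 in control mice, and against the level of 150 it was at least 1.13-fold higher. Of the immunoproteasome and PA28 genes, Psme1 was thus the only one with a measured value.

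Genes of antigen processing and interferon responses were mostly dim. Of 18 with a probe set, 5 were measured and these 5 were higher, against 16.8% of all measured genes. Tapbp, however, stayed within 0.4 with median scaling and with a pseudocount of 32. The MHC class I light chain gene B2m averaged 3801 on the RXRγ array and 1803 on the control array (log2 ratio 1.08). The heavy chain gene H2-K1 had a log2 ratio of 1.69 and H2-D1 one of 1.20. Because class I genes are highly alike, probe sets of H2-K1 and H2-D1 may share transcripts, and all of theirs above 250 have names ending in _x_at, which marks such probe sets. A probe set of H2-K1 was under 150 in control mice, so its ratio rests partly on a signal too low for a fold. Igtp, an interferon-induced GTPase gene, had 355.1 against 214, and passed the filter only through the RXRγ array. Tapbp (tapasin), which helps load peptides, had 481.2 against 363.6. The peptide transporter genes Tap1 and Tap2, the annotated neighbours of Psmb8 and Psmb9, were under 150 on both arrays, Tap1 at 44.3 against 38.9 and Tap2 at 80.6 against 70.2. On the brightest probe set, 11 of the 13 genes of this list not measured read higher on the RXRγ array and 2 read lower. Among them were Irgm1 (185.9 against 125.2), Gbp2 (109.7 against 73.6) and Ifit1 (22.1 against 27.5). Without a filter, with the mean over all probe sets, 10 of the 18 genes were higher by 0.4 and 1, Tap1, was lower. Among all genes 28.6% were then higher and 22.6% lower, and their median log2 ratio was also above 0, at 0.05. The share of all dim genes that read higher was not counted, for this list or for the leukocyte list below. With the signal filter lowered to 150, 6 of 7 antigen processing and interferon genes were higher, against 18.3% of all genes. Of these 6, Irgm1 had a brightest probe set above 150 on the RXRγ array only, so the filter favoured its direction. The leukocyte markers Csf1r and Lyz2 were the only ones measured, with log2 ratios of 0.25 and 0.24. Over the whole leukocyte list 9 of 11 markers read higher on the RXRγ array on their brightest probe set. Among these were the pan-leukocyte gene Ptprc (89 against 74) and the macrophage gene Cd68 (96.3 against 58.1). The lymphocyte genes Cd3e (4.4 against 9.2) and Cd79a (2.8 against 14.5) read lower. The part of these cells in the signal of Psme1 was not tested.

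**Figure D4:**
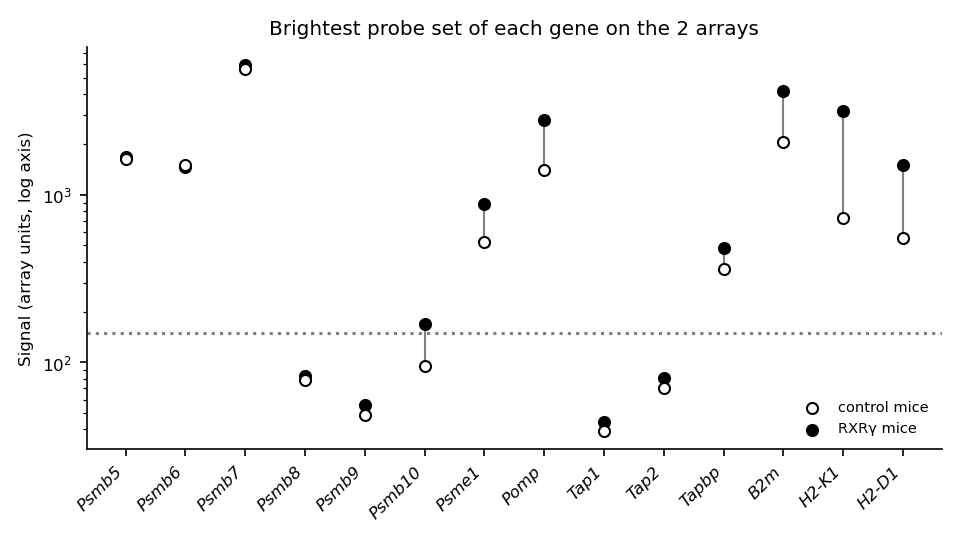
Signal of the brightest probe set of each gene on the control array (open circles) and the RXRγ array (filled circles), in array units on a log axis, with 1 array per genotype; the dotted line marks 150. The catalytic genes Psmb5, Psmb6 and Psmb7 lie high with touching circles, Psmb8, Psmb9, Tap1 and Tap2 lie below the line on both arrays, and Psme1, Pomp, B2m, H2-K1 and H2-D1 are separated, with the RXRγ array above.

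Of the genes for proteasome assembly, Psmg2 (PAC2) was the only named chaperone measured, averaging 355.9 on the RXRγ array and 413.0 on the control array (log2 ratio -0.21). Psmg1 (PAC1), its partner, had 206.6 against 229.3. Psmg3 and Psmg4 stayed under 150, as did Psmd9, while Psmd10 (gankyrin) had 161.3 against 122.5 and Psmd5 had 210.6 against 223.8. Pomp, the maturation factor that is the first substrate of the finished core, falls outside the naming rule and differed from all of them. Its signal was 2779.4 in RXRγ mice and 1404.2 in control mice (log2 ratio 0.99), on 1 probe set. Of the 10 listed partners of the proteasome with a probe set, Psme3ip1 included, all were measured. Of them 20% passed 0.4, against 36.9% of all genes, and Pomp was the only one higher. Ecpas, which binds the 26S proteasome, was the only one lower, with a log2 ratio of -0.77 over 4 probe sets that lay up to 0.68 apart. Its brightest probe set had 566.5 against 785.2. With median scaling Uchl5 and Zfand5 were lower as well. Usp14 and Uchl5, the deubiquitinating enzymes bound to 19S, had log2 ratios of -0.28 and -0.31, and Zfand5, which stimulates the proteasome in atrophying muscle, had -0.37. Sem1, a small 19S subunit outside the naming rule, had -0.15.

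The regulators of proteasome transcription were mostly near their control level. Nfe2l1 (NRF1), the transcription factor that raises proteasome subunit genes when proteasome activity is short, gave 945.9 on the RXRγ array and 920.1 on the control array. Nfe2l2 and Foxo4 had log2 ratios of 0.16 and 0.03, and Stat3 had 0.31. Ngly1, the glycanase that processes NRF1, was lower, at 405.2 against 617.4, and was the only one of 5 measured regulators past the threshold. That is a share of 20%, against 36.9% of all genes. Of 7 measured genes of the ubiquitin, E1 and shuttle list, 1 was higher and 2 were lower, a share of 42.9% past 0.4 that is near the 36.9% of all genes. Ubqln4, a shuttle factor, had 536.2 against 336.8. Rad23b and Ubqln2, also shuttle factors, had log2 ratios of -0.48 and -0.41, but Ubqln2 was within 0.4 after quantile normalization, after loess centring and with a pseudocount of 32, Rad23b was within it on its brightest probe set, and neither was lower without a filter. Nsfl1c, a cofactor of the segregase p97, had 0.32, and Vcp, which encodes p97, had 0.13.

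Among the muscle ubiquitin ligases, which act upstream of the proteasome, 6 genes were measured, of which 3 were lower and 1 higher. Among all measured genes 20.1% were lower and 16.8% higher. The median of the ligases was a log2 ratio of -0.74. With the signal filter lowered to 150 the median of the list was 0.08 over 10 genes, of which 3 were higher (Cblb, Stub1 and Znrf2) and 3 lower. At that filter 18.3% of all genes were higher and 19.2% lower. The brightest probe set of Cblb (190.2 against 123.1) exceeded 150 on the RXRγ array only. Fbxo32 (atrogin-1) had a log2 ratio of -2.18 over 3 probe sets that lay up to 2.31 apart, Trim63 (MuRF1) had 1070 against 2636.2, and Trim54 (MuRF3) had 1137.7 against 2496.9. Stub1, the chaperone-associated ligase CHIP, was higher (log2 ratio 0.41), though not with median scaling or a pseudocount of 32, and Nedd4 had -0.05. The values of the 14 core genes, from -0.61 to 0.18, and of the 17 genes of 19S, from -0.48 to 0.31, did not reach the size of these decreases. The difference between ligases and subunits was not tested.

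The promoters of the proteasome genes were read for short motifs, because the genes of the core and of 19S have known common regulators and because Psme1 departed from them. RefSeq gives a promoter window for 41 of the 49 genes, from 250 bases before to 50 after the annotated start, in build GRCm38.p6. Matches were counted on both strands. The NRF1 motif TGACNNNGC was in the windows of 6 member genes (14.6%) and of 14% of all 27025 genes with a window. They were Psmb5, Psmb6, Psmc6, Psmd9, Psmd12 and Psme4. The CCAAT box was in 39% of the member genes and in 41.1% of all genes. The interferon-stimulated response element was in 12.2% of the member genes and 3.99% of all genes, and the genes were Psmb3, Psmd4, Psmd9, Psme1 and Psmg4. The gamma-activated site TTCNNNGAA was in 7.32% and 9.55%. The perfect DR1 element of RXR heterodimers, which repeats the nuclear receptor half-site directly with a spacer of 1 base, was in no member gene and in 0.0481% of all genes. No motif searched is contained in another. The interferon-type element was thus present both in Psme1, which was higher, and in Psmd4, which was lower, and also in Psmb3, at 753.9 against 856.1. A match is a description of the letters and not evidence of binding. The windows of the genes with the largest increase and the largest decreases among genes with bright signals are shown 5′ to 3′ on the strand of the gene, with every match in capitals.
Psme1, chr14:55578244-55578543, plus strand, capitals mark the interferon-stimulated response element: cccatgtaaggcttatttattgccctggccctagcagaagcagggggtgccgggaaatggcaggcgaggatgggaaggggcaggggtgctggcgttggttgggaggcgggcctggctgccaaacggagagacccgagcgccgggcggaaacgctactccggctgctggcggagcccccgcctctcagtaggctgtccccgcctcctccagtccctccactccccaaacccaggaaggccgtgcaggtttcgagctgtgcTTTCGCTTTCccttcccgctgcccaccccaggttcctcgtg
Psmd4, chr3:95042565-95042864, minus strand, capitals mark 3 CCAAT boxes (some read ATTGG on the other strand) and the interferon-stimulated response element: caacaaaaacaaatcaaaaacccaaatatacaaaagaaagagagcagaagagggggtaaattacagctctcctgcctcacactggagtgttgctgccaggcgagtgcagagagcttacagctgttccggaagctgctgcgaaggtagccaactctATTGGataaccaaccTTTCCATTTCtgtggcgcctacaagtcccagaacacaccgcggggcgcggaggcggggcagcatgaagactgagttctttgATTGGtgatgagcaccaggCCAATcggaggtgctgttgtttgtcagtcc
Psma7, chr2:180042415-180042714, minus strand, capitals mark a CCAAT box: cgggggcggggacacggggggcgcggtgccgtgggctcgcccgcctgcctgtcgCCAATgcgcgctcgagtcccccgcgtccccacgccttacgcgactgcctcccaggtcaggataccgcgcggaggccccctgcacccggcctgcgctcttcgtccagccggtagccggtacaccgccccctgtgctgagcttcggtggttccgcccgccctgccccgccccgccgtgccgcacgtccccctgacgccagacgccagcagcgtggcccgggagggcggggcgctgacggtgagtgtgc
In Psme1 the element lies just after the annotated start, and in Psmd4 it lies upstream of the start, next to a CCAAT box. In Psma7 no element of the interferon type was found.

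Of the other members not measured, Psma8 and Psmb11, the core subunits of testis and thymus, read 2.9 and 3.1 on the RXRγ array and 1.7 and 0.7 on the control array. Psmc3ip and Psme3ip1 meet the naming rule but encode binding partners and not subunits. Psmc3ip was under 150 on both arrays, and Psme3ip1 had 261.3 in RXRγ mice against 242.2 in control mice. In all, 45 of the 103 member probe sets were under 150 on both arrays, and 52 were above 250 on the brighter one. Of these 52, 1 was higher and 5 were lower by 0.4, against 17.2% and 20.9% of all probe sets above 250, where 38.1% passed in either direction.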

How the data were processed

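Skeletal muscle RNA of control and RXRγ mice was measured on 1 Affymetrix MG430 array per genotype. The deposited intensity values (signals) come from the Affymetrix Gene Chip 3.1 software, with which the authors set perfect-match against mismatch oligonucleotides. They are linear and had been scaled, since trimming 2% of probe sets from each end left a mean of 100.0 on either array. The algorithm used for this is not given in the sources. Present calls were not analysed here. The platform annotation names 1 gene for 34958 of 45101 probe sets, several for 932 and none for 9211. For each gene, log2 ratios without a pseudocount were averaged over the probe sets whose brighter signal exceeded 250, and 0.4 was the threshold for a call. Genes were named where they passed 0.4, lay next to it, were catalytic, immunoproteasome or PA28 genes, or were the extremes and the median of a subgroup, and of each pathway list by size of change, with further members named after their values were seen. The members and lists were chosen with earlier results of these data known. Alternatives, tried 1 at a time, were 3 scalings (median, quantile, and loess in limma 3.58.1, R 4.3.3), a floor of 150, adding 32 to each signal, 4 other signal filters, 3 other rules for the probe sets of a gene and a threshold of 1. The steps were tested on simulated data. Python 3.11.15, pandas 2.3.3, numpy 2.4.6 and matplotlib 3.10.9 were used. Promoter windows are from RefSeq (GRCm38.p6), and the deposited values name no genome build.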

Additional observations from a re-analysis of the deposited data

How the results depend on the processing

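Psme1 remained higher in all 12 alternatives that gave it a value at the threshold of 0.4 (log2 ratio from 0.65 to 0.78), and Psma7 remained lower in all 12 (-0.70 to -0.50). Psmd4 was past the threshold in 11 of 12 and Psme3 in 9 of 10. Without a signal filter Psmd4 and Psme3 had -0.19 and -0.13, since dim probe sets then enter the mean. These counts include alternatives that could not change a value, so they are not counts of separate tests. Psme1 has 1 probe set, bright on both arrays, so only the scalings and the pseudocount could change its value. Both probe sets of Psma7 were bright, and its value changed only with these and with the brightest probe set alone. The number of proteasome genes higher was 2 when the brighter signal had to exceed 150 only (Psmb10 and Psme1), where 18.3% of all genes were higher, and 10 of 49 when no filter was used, where 28.6% were. Psmb10 passed 150 on the RXRγ array only (169.1 against 95.7), so the filter favoured its direction, and its control signal was too low for a fold. At a threshold of 1 the number higher was 0, as was the number lower, against 5.05% and 4.10% of all genes. The median of the muscle ubiquitin ligases, -0.74, was 0.00 without a filter. Without a filter Psma6, Psmc1, Psmd2 and Psmd7 had log2 ratios of 0.61, 0.74, -0.89 and 0.83. With median scaling the median of all genes shifted from -0.04 to -0.15, the calls over all genes from 636 higher and 760 lower to 495 and 1002, and Psmc3 became the fourth proteasome gene lower. The median of the core genes, -0.05, was 0.00 after loess centring and 0.05 without a filter, and that of all proteasome genes was 0.07 without a filter. The median of the immunoproteasome and PA28 genes rests on Psme1 alone in all but the 2 looser filters. With 1 array per genotype no replicate could be left out. No paired analysis was possible because each genotype has 1 array.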

Other observations

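On one side of Psmd4, annotated neighbours had lower signals in RXRγ mice, which was noticed after the values were seen. Tmod4, a muscle tropomodulin gene, read 2063.4 against 4667.5 on the control array, and Vps72 had 140.4 against 288.6. Vps72 passed the filter of 250 through the control array only, so the filter favoured its direction. Its RXRγ signal was too low for a fold. Among all measured genes 20.1% were lower. Pip5k1a, between them and Psmd4, did not reach 250 and had 155.6 against 192.1. On the other side Zfp687 (117.9 against 72.7), Pi4kb (41.4 against 24.6) and Rfx5 (75.8 against 80.4) were all under 150. The measured neighbours of Psme1 lay below 0 and within 0.4, with log2 ratios of -0.17 for Dcaf11 and -0.25 for Fitm1, a gene of lipid droplet formation. Beside Psme3, Becn1, Cntd1 and Coa3 lay between -0.02 and 0.07.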
